A study of Caenorhabditis elegans with 12 samples.

Results

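The subject here is the interaction of 2 alleles of Caenorhabditis elegans, dis-3(L75Q) and eat-2(ad1116), measured in the transcripts of whole animals. All 12 libraries of the series enter it, 3 for each of 4 genotypes. N2 was the wild-type strain, VC40130 carried dis-3(L75Q), IJ173 carried eat-2(ad1116), and IJ2290, the double mutant, carried the 2 alleles together. All were hermaphrodites of the prefertile adult stage, kept on the Escherichia coli food strain OP50 at 20 °C, with no other treatment. Each genotype is a single strain, so a difference named after an allele is a difference between strains, and other variants that a strain carries cannot be told apart from it.

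The RNA exosome trims and degrades RNA in the nucleus and cytoplasm, and DIS-3 is a catalytic ribonuclease associated with it. EAT-2 belongs to the nicotinic acetylcholine receptors that drive pumping of the pharynx, the feeding organ, and eat-2 mutants, which pump slowly, are widely used to model dietary restriction. When the effects of 2 alleles multiply, the double mutant equals the product of the single-mutant ratios, which is additive on the log2 scale, and a gene that departs from this is called non-additive.

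The interaction was computed as the difference between the double mutant and eat-2(ad1116), minus the difference between dis-3(L75Q) and wild type, on the log2 scale. A positive value puts the double mutant above the additive expectation and a negative value puts it below. Levels are CPM, counts scaled to the size of the library, as single libraries or as mean ± SD over 3 libraries. Estimates are log2 values ± SE from edgeR's quasi-likelihood test, with Benjamini-Hochberg adjusted p-values over all 16259 genes tested. A gene was called at an adjusted p under 0.05. A genotype is said to stand apart for a gene when all 3 of its libraries lay above, or all below, the other 9.

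Libraries held 31812386 to 32773817 counts. The labels state independent harvests, and the p-values measure the spread between them. Markers of the intestine, muscle, pharynx, neurons, hypodermis, germline, oocytes and sperm were present in every library, and the zygotic embryo markers end-1, end-3 and tbx-37 were at or below 0.326 CPM. In whole animals, fewer cells of a type and less RNA per cell cannot be told apart. The dis-3 transcript had an interaction of 0.04 ± 0.11 (edgeR adjusted p = 0.871) and eat-2, with 6 to 24 counts per library, one of -0.63 ± 0.66 (adjusted p = 0.625). Neither level checks the labels, because L75Q changes an amino acid and eat-2 had few counts.

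Few transcripts were called non-additive by this test, and in 9 of the 10 called a single mutant stood apart from the other genotypes, the exception being scb-1. A gene that was not called is not shown to be additive. The count depended on the method and the libraries, at 52 with DESeq2 and 2214 without eat-2(ad1116) replicate 1. Of the 16259 genes, 10 were called (0.0615%), 6 above the additive expectation (0.0369%) and 4 below it (0.0246%). An unadjusted p under 0.05 was found for 1180 genes (7.26%). Among the 10 genes dis-3(L75Q) stood apart for 6, eat-2(ad1116) for 3, wild type for 4 and the double mutant for 0, and 3 of the 10 had 2 genotypes apart, a high and a low one. Over all tested genes these shares were 4.69% for wild type, 2.76% for eat-2(ad1116), 2.32% for dis-3(L75Q) and 1.59% for the double mutant. The 10 genes were chosen by a contrast of the same libraries, so these counts describe them and test nothing further.

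**Figure D1:**
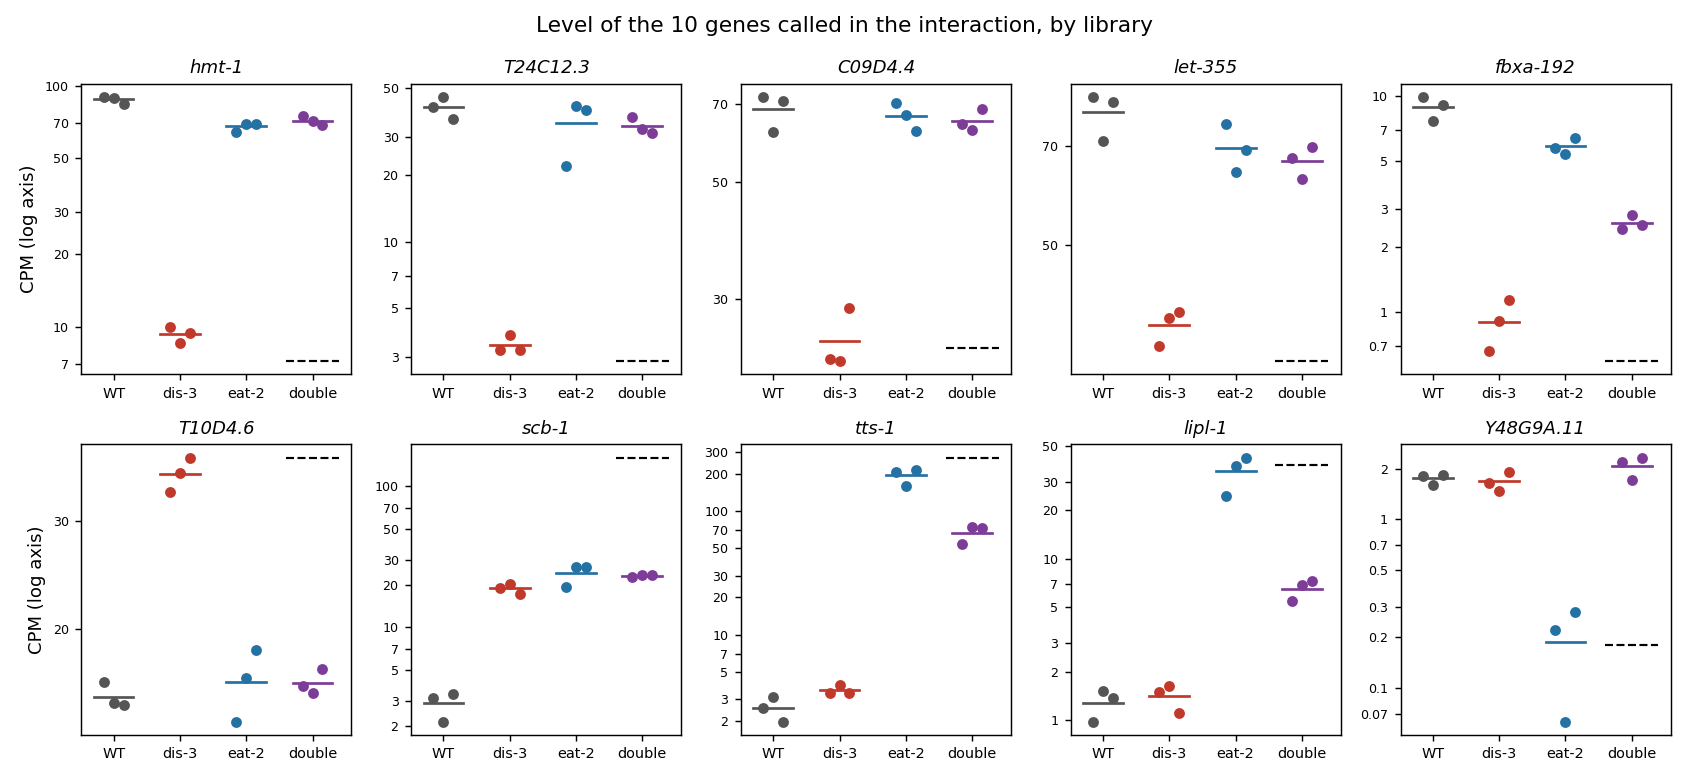
Level in CPM (log axis, a scale of its own in each panel) of the 10 called genes in each of the 12 libraries. Points are libraries, solid bars are genotype means over 3 libraries, and the dashed bar is the level the double mutant would have if the 2 effects were additive on the log2 scale. For hmt-1 the double mutant mean of 71.3 CPM sits far above the dashed bar at 7.21, and for scb-1 its mean of 23.2 sits far below the dashed bar at 159.

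In 4 genes dis-3(L75Q) was low, and the double mutant lay near eat-2(ad1116). The smallest p was that of hmt-1 (chromosome III, 11091548 to 11099964, minus strand), an ABC transporter gene needed to tolerate heavy metals. Its level was 89.8, 89 and 83.9 CPM in the wild-type libraries, 9.96, 8.57 and 9.43 in dis-3(L75Q), 74.7, 71 and 68.3 in the double mutant and 64.2, 69.4 and 69.5 in eat-2(ad1116). All 3 dis-3(L75Q) libraries were low, the wild-type libraries were the highest, and the other 2 genotypes overlapped. The additive expectation for the double mutant was 7.21 CPM and the measured mean was 71.3 ± 3.2 (SD, n = 3), 9.9 times higher, with an interaction of 3.31 ± 0.12 (edgeR adjusted p = 4.06e-07). The dis-3(L75Q) difference was -3.23 ± 0.09 without eat-2(ad1116) (adjusted p = 2.47e-08) and 0.08 ± 0.08 with it (adjusted p = 1). The neighbouring gene W09D6.5, whose end overlaps that of hmt-1 on the other strand, lay at 19.3 to 22.4 CPM in the 4 genotype means, with an interaction of -0.06 ± 0.2.

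T24C12.3 (chromosome X, 2196525 to 2203893), a protein-coding gene with no gene-class name, was also low in dis-3(L75Q). It lay at 41.1, 45.5 and 35.9 CPM for wild type, 3.21, 3.76 and 3.23 in dis-3(L75Q), 36.9, 32.4 and 31.1 in the double mutant and 22.1, 41.5 and 39.7 in eat-2(ad1116). The dis-3(L75Q) libraries were apart from all others, and the remaining genotypes overlapped, with eat-2(ad1116) replicate 1 as their lowest library. The double mutant mean of 33.5 ± 3 CPM was 11.7 times the additive expectation of 2.87 (interaction 3.54 ± 0.31, adjusted p = 0.00166). T24C12.1, which lies within its span on the other strand, was near 1 CPM in every genotype (means 0.961 to 1.64) with an interaction of -0.07 ± 0.38.

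The other pair of genes low in dis-3(L75Q), C09D4.4 and let-355, are direct neighbours on chromosome I. They lie on the minus strand, at 5479488 to 5484661 and 5472325 to 5479438, with 49 bases between the annotated genes. C09D4.4 was at 72.3, 62.1 and 71.1 CPM for wild type, 23.1, 22.9 and 28.8 in dis-3(L75Q), 64.3, 62.7 and 68.5 in the double mutant and 70.4, 66.9 and 62.4 in eat-2(ad1116). Here 3 genotypes shared 1 range and dis-3(L75Q) lay below it. The double mutant was at 2.69 times the additive expectation of 24.2 CPM (interaction 1.43 ± 0.16, adjusted p = 0.00776). The let-355 level was 82.9, 71.4 and 81.5 CPM for wild type, 35.4, 38.9 and 39.7 in dis-3(L75Q), 67.2, 62.6 and 69.8 in the double mutant and 75.5, 64 and 69.2 in eat-2(ad1116). Again the dis-3(L75Q) libraries were the low ones, with an additive expectation of 33.6 CPM, a double mutant mean of 66.5 ± 3.6 and an interaction of 0.98 ± 0.14 (adjusted p = 0.0374). The genes on either side of this pair did not share the pattern. The ribosomal protein gene rpl-19, next to C09D4.4, had an interaction of -0.2 ± 0.19 (adjusted p = 0.594), and the histone H1-like gene hil-8, next to let-355, had 0.13 ± 0.3 (adjusted p = 0.832).

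The F-box gene fbxa-192 (chromosome V, 17640672 to 17650527) was low with dis-3(L75Q) in either background, but less so with eat-2(ad1116). F-box proteins are substrate adaptors of ubiquitin ligases. Its level was 9.92, 7.69 and 9.07 CPM for wild type, 0.662, 0.916 and 1.14 in dis-3(L75Q), 2.44, 2.82 and 2.54 in the double mutant and 5.77, 5.39 and 6.38 in eat-2(ad1116). The 4 genotypes did not overlap, in the order wild type, eat-2(ad1116), double mutant and dis-3(L75Q). The dis-3(L75Q) difference was -3.29 ± 0.22 (9.77-fold lower, adjusted p = 3.61e-05) without eat-2(ad1116) and -1.17 ± 0.2 (2.24-fold lower, adjusted p = 0.0401) with it, an interaction of 2.12 ± 0.29 (adjusted p = 0.0374). The 3 tested genes next to it on 1 side were named after their values were seen. The adjacent pseudogene WBGene00010295 fell with dis-3(L75Q) in either background, by 3.02 without eat-2(ad1116) and by 2.14 with it on the log2 scale (adjusted p = 9.29e-05 and 0.00128; interaction 0.87 ± 0.3, adjusted p = 0.522). The next pseudogene, WBGene00010294, fell by 1.41 without it (adjusted p = 0.00802) and differed by -0.62 with it (adjusted p = 0.466; interaction 0.78 ± 0.27, adjusted p = 0.522). The third, fbxa-108 (17656890 to 17659385), fell in dis-3(L75Q) against wild type (-1.54 on the log2 scale, adjusted p = 0.0071) and differed by -0.42 in the other background (adjusted p = 0.918). The fbxa-108 interaction of 1.11 ± 0.29 did not pass the test (adjusted p = 0.522). F-box genes form families of similar sequence, so that counting may have moved reads between members.

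T10D4.6 (chromosome II, 3119332 to 3123183), a protein-coding gene with a clone name, was the 1 called gene that stood apart as high in dis-3(L75Q). It lay at 16.4, 15.1 and 15 CPM for wild type, 33.5, 35.9 and 38.1 in dis-3(L75Q), 16.1, 15.7 and 17.2 in the double mutant and 14.1, 16.6 and 18.5 in eat-2(ad1116). The dis-3(L75Q) libraries were high and the other 9 overlapped. Against an additive expectation of 38 CPM the double mutant was at 16.3 ± 0.8 (interaction -1.22 ± 0.17, adjusted p = 0.0424).

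**Figure D2:**
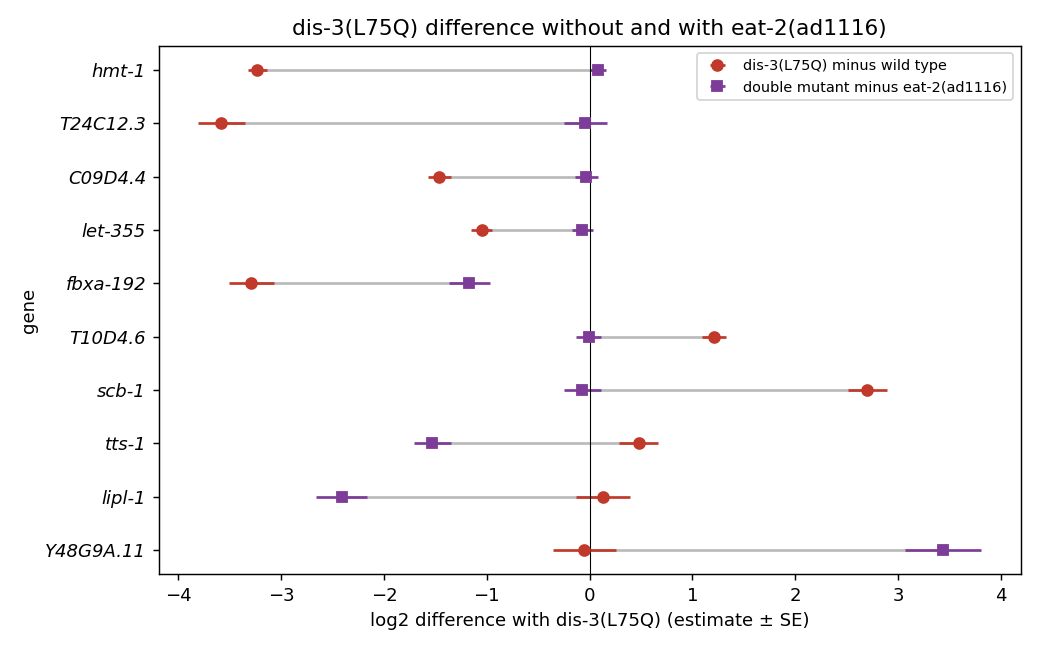
Log2 difference with dis-3(L75Q) (x axis, estimate ± SE from edgeR) for the 10 called genes, without eat-2(ad1116) as circles and with it as squares. The line between them is the interaction. For hmt-1 the circle is at -3.23 and the square at 0.08, and for lipl-1 they are at 0.13 and -2.41.

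For scb-1 wild type stood apart from all 3 mutants. The gene (chromosome V, 11118766 to 11119705) is known from natural variation in the response of worms to the drug bleomycin. It lay at 3.17, 2.15 and 3.38 CPM for wild type, 19.1, 20.3 and 17.3 in dis-3(L75Q), 22.6, 23.5 and 23.5 in the double mutant and 19.3, 26.9 and 26.9 in eat-2(ad1116). The wild-type libraries were low, and the mutants lay within 17.3 to 26.9. With each allele by itself scb-1 was higher than in wild type, by 2.7 ± 0.19 in dis-3(L75Q) and 3.07 ± 0.2 in eat-2(ad1116) on the log2 scale (edgeR adjusted p = 7.35e-05 and 2.23e-05). Additive effects would have put the double mutant at 159 CPM, and it was at 23.2 ± 0.51, which is 0.146 of that (interaction -2.77 ± 0.26, adjusted p = 0.00261). The gene math-33, which overlaps the end of scb-1 on the other strand, was at 194 to 208 CPM in the genotype means (interaction -0.15 ± 0.16).

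In 3 genes eat-2(ad1116) stood apart, and the double mutant was back towards wild type. The noncoding RNA tts-1 (chromosome X, 1504131 to 1504841) is known from long-lived daf-2 mutants and dauer larvae, where it associates with ribosomes. It was at 2.54, 3.13 and 1.98 CPM for wild type, 3.37, 3.89 and 3.39 in dis-3(L75Q), 53.7, 74.3 and 72.6 in the double mutant and 206, 160 and 215 in eat-2(ad1116). The 4 genotypes did not overlap, and eat-2(ad1116) was the highest. It rose with eat-2(ad1116) in either background, by 6.25 ± 0.22 against wild type (75.9-fold, adjusted p = 3.02e-07) and by 4.23 ± 0.2 against dis-3(L75Q) (18.8-fold, adjusted p = 3.58e-06). The double mutant was at 0.248 of its additive expectation of 270 CPM (interaction -2.01 ± 0.26, adjusted p = 0.0338), a call lost with limma-voom (adjusted p = 0.161) and with a replicate block (adjusted p = 0.111).

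Fasting is known to induce lipl-1 (chromosome V, 12919986 to 12921692), one of the lysosomal lipases that break down fat stores. It lay at 0.983, 1.52 and 1.37 CPM for wild type, 1.49, 1.64 and 1.11 in dis-3(L75Q), 5.46, 6.85 and 7.24 in the double mutant and 24.4, 37.4 and 42.2 in eat-2(ad1116). Wild type and dis-3(L75Q) overlapped at the bottom, and the double mutant lay between them and eat-2(ad1116). The rise with eat-2(ad1116) was 26.8-fold without dis-3(L75Q) and 4.61-fold with it (adjusted p = 1.39e-05 and 0.00162), an interaction of -2.54 ± 0.36 (adjusted p = 0.0391). That call was lost with limma-voom (adjusted p = 0.238), with a replicate block (0.0677) and with a stage covariate (0.067), over a range of 0.0064 to 0.177 with single libraries left out. The other members of the family did not pass the interaction test. For lipl-3 the rise with eat-2(ad1116) was 13.3-fold without and 6.48-fold with dis-3(L75Q) (interaction -1.03 ± 0.31, adjusted p = 0.522), and for lipl-2 it was 7.59-fold and 4.63-fold (interaction -0.71 ± 0.34, adjusted p = 0.522). The values of lipl-4, lipl-5, lipl-6 and lipl-7 were -0.65 ± 0.4, -0.15 ± 0.14, -1.79 ± 1.18 and -0.01 ± 0.23.

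Y48G9A.11 (chromosome III, 2112416 to 2116897) was nearly lost in eat-2(ad1116) and present in the double mutant. Its counts were 57, 51 and 60 for wild type, 50, 45 and 59 in dis-3(L75Q), 72, 58 and 78 in the double mutant and 8, 2 and 9 in eat-2(ad1116). The eat-2(ad1116) libraries were low and the other 9 overlapped, between 1.47 and 2.33 CPM. The double mutant was 11.5 times its additive expectation (interaction 3.49 ± 0.48, adjusted p = 0.0374). The next tested gene along the chromosome, Y48G9A.6 (2117841 to 2119158, 943 bases away, on the other strand), was named after its values were seen. It had 11, 21 and 14 counts for wild type, 12, 18 and 8 in dis-3(L75Q), 0 in each eat-2(ad1116) library and 8, 16 and 19 in the double mutant. Its interaction had an adjusted p = 0.165. On the other side Y48G9A.7, which overlaps the end of Y48G9A.11, had an interaction of -0.22 ± 0.5, and frl-1, the next gene beyond Y48G9A.6, had -0.17 ± 0.16.

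**Figure D3:**
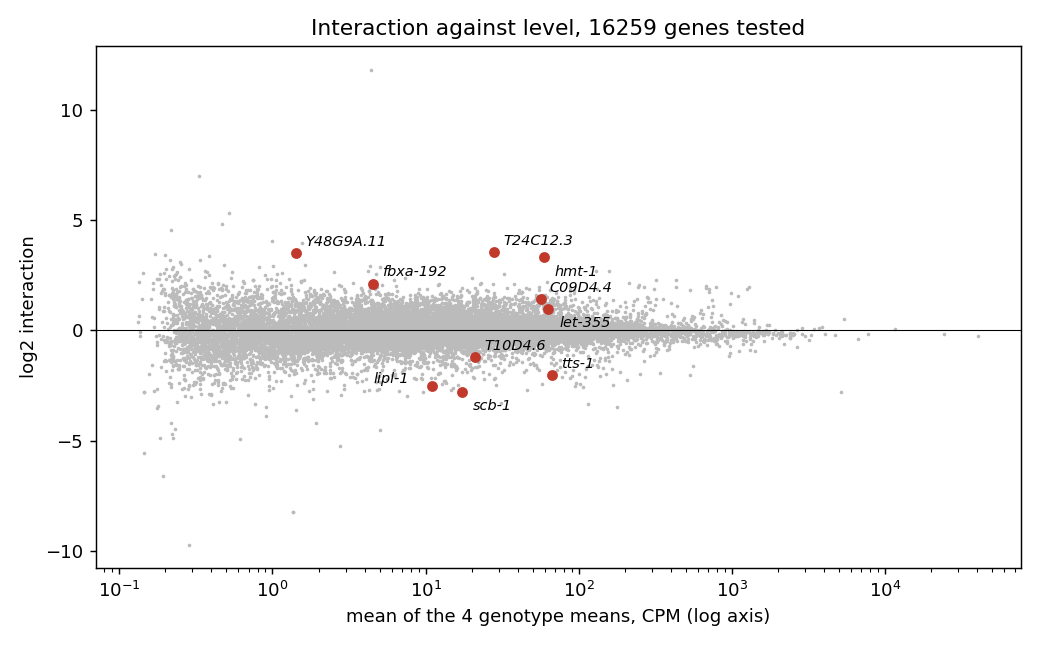
Log2 interaction (y axis) against the mean of the 4 genotype means in CPM (log x axis) for all 16259 tested genes, with the 10 called genes as labelled large points. The middle 50% of genes lay between -0.38 and 0.33, and genes at low levels spread more widely than genes at high levels.

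Among the 10 genes the dis-3(L75Q) difference was called in 7 without eat-2(ad1116) (0.56% of all tested genes) and in 4 with it (0.351%). The eat-2(ad1116) difference was called in 5 without dis-3(L75Q) (6.21%) and in 8 with it (1.24%). These comparisons share libraries with the interaction that chose the genes, and are given for their values. Genes just outside the threshold were dod-22, nspc-16, C02B8.1 and F17B5.1, each with an edgeR adjusted p = 0.0961, named for that value. The immune gene dod-22, which encodes a CUB-like protein, stood apart as high in dis-3(L75Q), at 24.5, 24.5 and 18.2 CPM against 4.05 to 8.85 in the other 9 libraries. The gene nspc-16, of a nematode-specific peptide family, stood apart as low in wild type (1.06 ± 0.21 CPM, with 3.67 ± 0.98, 8.21 ± 0.73 and 6.54 ± 1.2 in dis-3(L75Q), eat-2(ad1116) and the double mutant) and as high in eat-2(ad1116). F17B5.1 also stood apart as low in wild type (CPM in the same order 1.7 ± 0.47, 6.54 ± 1.8, 25.1 ± 7.5 and 17.9 ± 0.52). C02B8.1 stood apart as low in eat-2(ad1116), at 0.385 ± 0.048 CPM against genotype means of 1.78 to 2.19.

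The number of non-additive genes depended on which libraries were used. In the variance of log2 CPM over all tested genes, 14.6% of the sum of squares lay along dis-3(L75Q), 22.3% along eat-2(ad1116) and 13.2% along the interaction, each with 1 degree of freedom, and 50% between libraries of a genotype, with 8. A score of stage was taken as the difference in mean log2 CPM between 48 molting and apical matrix genes and 45 genes of oocytes and eggshell. It was -2.33, 0.18 and -3.19 in the wild-type libraries 1 to 3. It was 1.69, 1.24 and -0.76 in dis-3(L75Q), -1.15, 1.55 and 1.61 in eat-2(ad1116) and 0.85, 0.4 and 0.35 in the double mutant. A library differed from its genotype's remaining pair in 3 cases, replicate 1 of eat-2(ad1116), replicate 2 of wild type and replicate 3 of dis-3(L75Q), and the 3 mutant means (0.72, 0.67 and 0.53) lay above that of wild type (-1.78), an interaction of -2.64.

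**Figure D4:**
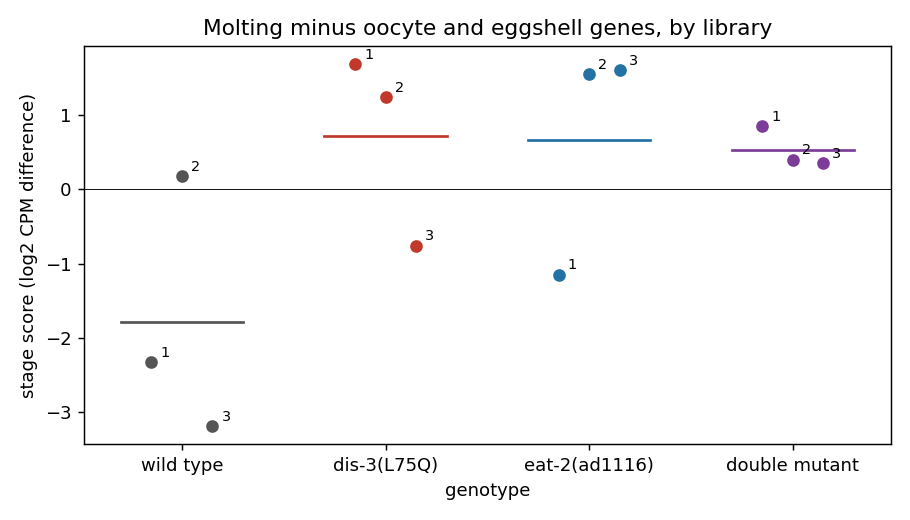
Stage score of each library (y axis, log2 CPM of molting genes minus oocyte and eggshell genes) by genotype, with replicate numbers beside the points and genotype means as bars. The double mutant libraries lie within 0.35 to 0.85, while each other genotype has 1 library apart from its other 2.

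With eat-2(ad1116) replicate 1 left out, 2214 genes were called, 1501 above and 713 below the additive expectation, and with the 3 libraries apart on the score left out, 8677 of 16375 were called (53%), 4087 above and 4590 below. The 3 libraries were chosen by their difference from the others of their genotype, so that leaving them out narrows the spread that the test uses. It also moves the interaction of the score itself from -2.64 to -5.27, so the size of this count is partly fixed by the choice of libraries. The 10 genes were among the calls in each case. In the 9 remaining libraries wild type stood apart in 32.9% of the called genes as the highest and in 37.9% as the lowest, and the double mutant in 3.14% and 2.25%. The same shares over all tested genes in these 9 libraries were not taken. Wild type replicates 1 and 3, the ones left, had the lowest stage scores of all libraries (-2.33 and -3.19). Each genotype but the double mutant lost 1 library, so fewer libraries had to lie apart for it to stand apart. The called genes were also chosen by the interaction in these same libraries. These shares therefore reflect the choice and number of libraries as well as the genes, and their difference between genotypes shows nothing further. Without wild type replicate 1, 2 or 3 there were 6, 8 and 3 calls. Without dis-3(L75Q) replicate 1, 2 or 3 there were 4, 4 and 14. Without eat-2(ad1116) replicate 2 or 3 there were 6 and 4, and without any 1 of the double mutant replicates there were 4. A fit with that score as a covariate called 9 genes, 5 of them among the 10 (hmt-1, T24C12.3, scb-1, C09D4.4 and let-355). The estimates of the other 5 in that fit were -1.94 for tts-1, 1.91 for fbxa-192, 3.29 for Y48G9A.11, -2.03 for lipl-1 and -1.16 for T10D4.6, with adjusted p-values of 0.0652 to 0.067.

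The calls of hmt-1, T24C12.3 and scb-1 held with each of the 12 libraries left out in turn, with adjusted p-values up to 7.23e-06, 0.0138 and 0.0231. That of C09D4.4 was lost without wild type replicate 3 (adjusted p = 0.0558). The other 6 calls were each lost without wild type replicate 1 or 3, dis-3(L75Q) replicate 1 or 2, eat-2(ad1116) replicate 3 or any double mutant replicate. Calls were also lost without eat-2(ad1116) replicate 2 for fbxa-192, let-355, lipl-1 and T10D4.6, without wild type replicate 2 for Y48G9A.11, lipl-1 and T10D4.6, and without dis-3(L75Q) replicate 3 for let-355 and T10D4.6. The highest adjusted p-values were 0.139 for tts-1, 0.157 for fbxa-192, 0.177 for Y48G9A.11 and lipl-1, 0.244 for let-355 and 0.229 for T10D4.6, and the direction was the same throughout.

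Genes of yolk, sperm and oocytes had positive median interactions and molting genes a negative one, with 0 called members. For all tested genes the median was -0.02, with 7807 of 16259 above 0. The 6 yolk protein genes had a median of 1.59 (6 of 6 above 0), 92 sperm genes 1.28 (88 above 0), 45 oocyte and eggshell genes 1.14 (43 above 0) and 44 germline meiosis genes 0.35 (42 above 0). The 48 molting and apical matrix genes had -0.84 (7 above 0). The molting and oocyte lists make up the stage score, so its interaction of -2.64 restates theirs (-1.21 and 1.43 as list means). The part of the score in the other medians was not tested. The dis-3(L75Q) difference of the oocyte and eggshell genes had a median of -1.09 without eat-2(ad1116) and 0.07 with it, and that of the molting genes 1.2 and 0.11.

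**Figure D5:**
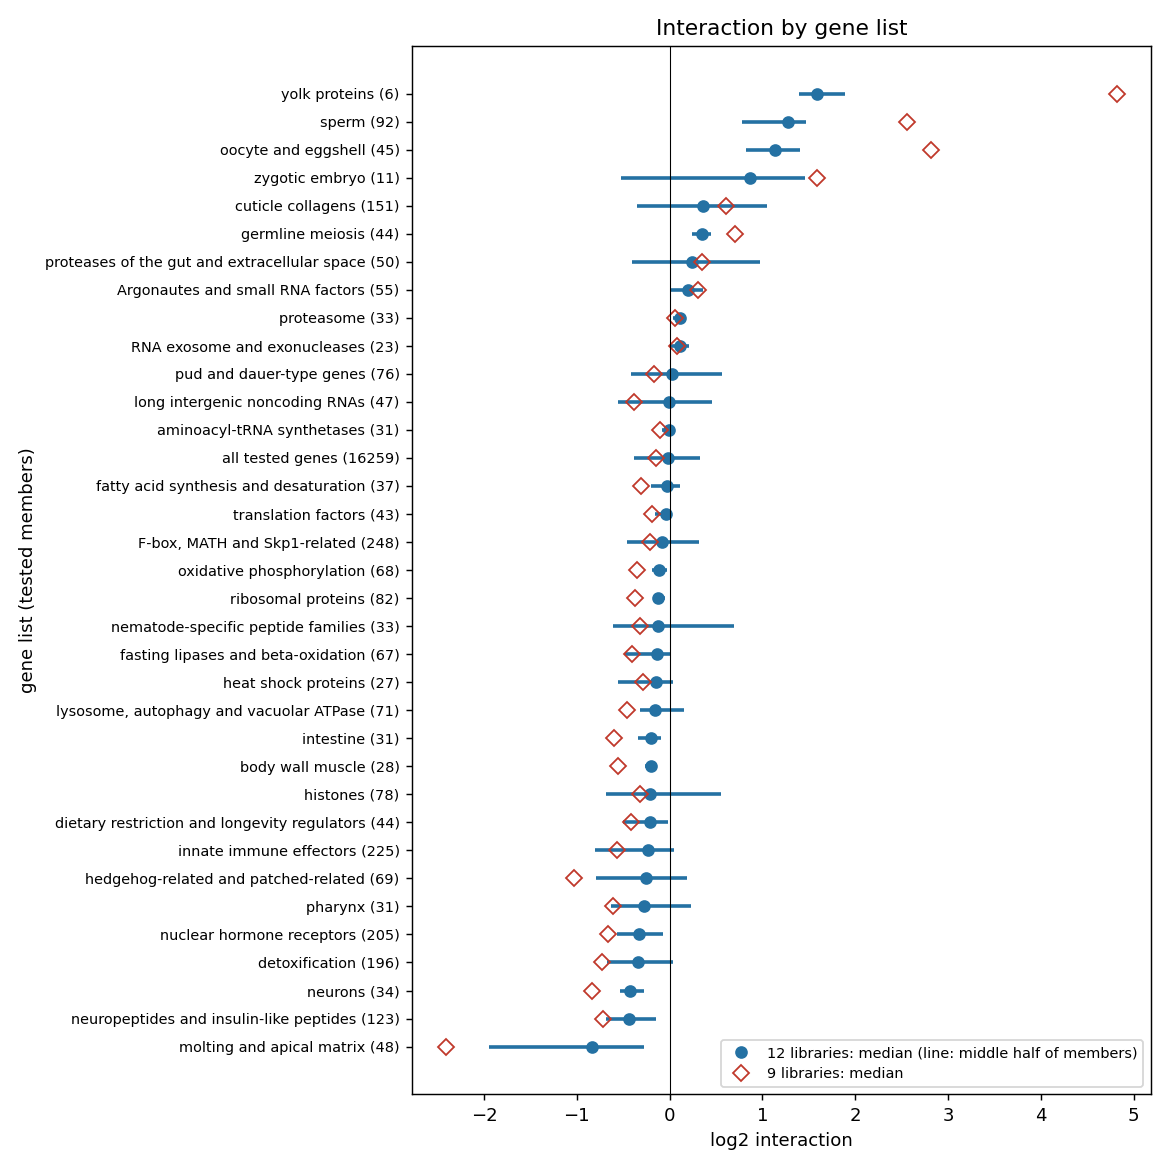
Median log2 interaction (x axis) of each gene list, with the number of tested members in parentheses and all tested genes for comparison. Filled circles are medians over 12 libraries, lines span the middle 50% of the members, and open diamonds are medians with the 3 libraries apart on the stage score left out, a choice made with the molting and oocyte genes themselves, which moves those medians outward. Yolk proteins and molting genes lie at opposite ends, at 1.59 and -0.84 with 12 libraries.

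Groups of the nervous system, signalling and defence had medians below 0. Neuropeptides and insulin-like peptides had a median of -0.44 (24 of 123 above 0), markers of neurons -0.43 (2 of 34), detoxification genes -0.34 (55 of 196), nuclear hormone receptors -0.33 (32 of 205) and innate immune effectors -0.23 (65 of 225). Apart from hmt-1, a member of the detoxification list, 0 members of these lists were called. Wild type stood apart as low in 22 of 123 neuropeptide genes (17.9%), 4 of 34 neuronal markers (11.8%), 18 of 205 nuclear hormone receptors (8.78%) and 9 of 33 nematode-specific peptide genes (27.3%), where the share of all tested genes was 3%. The pigment dispersing factor gene pdf-1, a neuropeptide of locomotion and circadian output, had a wild-type mean of 7.23 CPM and means of 11.1, 17.2 and 15.8 in dis-3(L75Q), eat-2(ad1116) and the double mutant (interaction -0.75 ± 0.22, adjusted p = 0.522). The summed level of the neuronal markers snb-1, unc-13 and rgef-1 was 87.3 and 79 CPM in wild type replicates 1 and 3, and wild type replicate 2 lay within the 99.3 to 139 of the 9 mutant libraries. The part of this sum in the result was not tested.

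Among 225 tested innate immune genes dis-3(L75Q) stood apart as high in 20 (8.89%), against 1.46% of all tested genes. It was low in 2, against 140 of all 16259 tested genes. The same list had eat-2(ad1116) as high in 14 and as low in 6. It had wild type as high in 1 and as low in 16. Over all tested genes eat-2(ad1116) stood apart in 2.76% in either direction (1.31% as low), and wild type in 4.69% (3% as low). Whether the counts of the genotypes differ from each other or from these shares was not tested. The counts include pairs of entries with identical values, for clec-209 (high in dis-3(L75Q) and low in eat-2(ad1116)) and for clec-15 (high in eat-2(ad1116)). The genes high in dis-3(L75Q) included the C-type lectin genes clec-70 and clec-52. The clec-70 level was 4.56 CPM in dis-3(L75Q), against 0.468, 1.75 and 0.91 in wild type, eat-2(ad1116) and the double mutant (interaction -4.22 ± 0.73, edgeR adjusted p = 0.132). The clec-52 level was 36.5 CPM, against 8.81, 11.9 and 14.9 in the same order (interaction -1.73 ± 0.31, adjusted p = 0.167). The list's median dis-3(L75Q) difference was 0.22 without eat-2(ad1116) and -0.04 with it. Of the 196 detoxification genes 11 stood apart as high in dis-3(L75Q) (5.61%), among them the glutathione S-transferase genes gst-10, at 216 CPM against 137, 56.5 and 64.2, and gst-13, at 121 against 84.6, 61.3 and 59.8, in the same order. Their interactions were -0.48 ± 0.19 and -0.55 ± 0.24 (edgeR adjusted p = 0.522 for each). For clec-70, clec-52, gst-10 and gst-13 the lowest dis-3(L75Q) library was replicate 3, at 3.36, 30.2, 190 and 94.6 CPM. The lowest eat-2(ad1116) library was replicate 1. Wild type replicate 2 was the highest of its genotype except for clec-52, where it was the lowest. These libraries lay apart on the stage score, whose part here was not tested. The members of lists named for a genotype apart were chosen after their values were seen, as those with the smallest interaction p among the members with that genotype apart.

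Proteasome subunits were lowest in eat-2(ad1116). Of 33 tested subunits, which form the protease that degrades ubiquitin-tagged proteins, eat-2(ad1116) stood apart as low in 17 (51.5%), where the share of all tested genes was 1.31%, and its mean was the lowest of the 4 genotypes in 32. The differences were small, with ratios of eat-2(ad1116) to wild type from 0.788 to 0.956, and 12 of the 33 fell in that comparison by the edgeR test (2.12% of all tested genes fell). The lid subunit gene rpn-5 was at 271 ± 11 CPM in wild type (SD, n = 3), 257 ± 5.8 in dis-3(L75Q), 242 ± 7.1 in the double mutant and 217 ± 7.6 in eat-2(ad1116) (interaction 0.23 ± 0.1, adjusted p = 0.522). Here the double mutant lay between eat-2(ad1116) and the other genotypes. The list's median interaction was 0.11, with 31 of 33 above 0 and 0 called, and 0 subunits passed between the double mutant and eat-2(ad1116).

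The double mutant stood apart in 12 of 196 detoxification genes (7 high and 5 low) and in 5 of 67 fasting lipase and beta-oxidation genes (4 high and 1 low). Of these, 0 were called in the interaction, and its share of all tested genes was 1.59%. The other genotypes stood apart in these lists too. In detoxification genes dis-3(L75Q) was high in 11 and low in 4, eat-2(ad1116) in 6 and 6, and wild type in 4 and 7. In the fasting list these counts were 2 and 1, 5 and 3, and 1 and 2. Their shares of all tested genes were 2.32%, 2.76% and 4.69%. In the pud and dauer-type list it was the low genotype in 5 of 76 members (6.58%, against 0.64% of all tested genes), and the 5 were all pud genes, a family named for proteins raised in dauer larvae and daf-2 mutants. The level of pud-4 was 15.6, 8.14 and 11.7 CPM for wild type, 15.2, 10.8 and 24.3 in dis-3(L75Q), 2.68, 2.18 and 1.82 in the double mutant and 6.07, 7.18 and 8.12 in eat-2(ad1116) (interaction -2.18 ± 0.45, adjusted p = 0.258). The libraries of the double mutant were below all others and those of eat-2(ad1116) came next. The member pud-1.2 was at 188, 212, 134 and 60.3 CPM for wild type, dis-3(L75Q), eat-2(ad1116) and the double mutant (interaction -1.33 ± 0.35, adjusted p = 0.522). The pud genes are similar in sequence and may exchange reads.

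Groups of protein synthesis and RNA decay had medians from -0.12 to 0.2 and 0 called members. The median interaction was -0.12 for 82 ribosomal protein genes (11 above 0), -0.04 for 43 translation factors (19 above 0) and -0.01 for 31 aminoacyl-tRNA synthetases (14 above 0). It was 0.11 for 23 genes of the RNA exosome and exonucleases (19 above 0) and 0.2 for 55 Argonautes and small RNA factors (43 above 0). Of these 55, 7 were above 0 at an unadjusted p under 0.05 by the edgeR test, against 505 of all 16259 tested genes. The desaturase genes fat-1 to fat-7, of fatty acid synthesis, did not pass the interaction test either, with values from -0.74 ± 0.29 for fat-3 to 0.25 ± 0.2 for fat-7. For fat-6, which fell with dis-3(L75Q) in either background (by 1.81 and 1.7 on the log2 scale, adjusted p = 0.000124 and 0.000498) and is similar in sequence to fat-7, the interaction was 0.11 ± 0.2 (adjusted p = 0.775).

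In the other lists at most 2 members were called. The list of dietary restriction and longevity regulators had tts-1 and scb-1 as its 2 called members of 44, both below the additive expectation (median -0.21). That list was written with earlier results of these data known, so this count describes its members and tests nothing. Fasting lipases and beta-oxidation genes had lipl-1 as 1 of 67 (median -0.14), F-box, MATH and Skp1-related genes fbxa-192 as 1 of 248 (median -0.08) and long intergenic noncoding RNAs tts-1 as 1 of 47 (median -0.01). With 0 called, the medians were -0.28 for pharynx, -0.25 for hedgehog-related, -0.21 for histones, -0.2 for intestine and body wall muscle, -0.16 for lysosome and autophagy, -0.15 for heat shock proteins, -0.11 for oxidative phosphorylation, -0.12 for nematode-specific peptides, -0.03 for fatty acid synthesis, 0.03 for pud and dauer-type genes, 0.24 for proteases, 0.36 for cuticle collagens and 0.87 for the 11 tested of 46 zygotic embryo genes.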

How the data were processed

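Total RNA of whole animals was sequenced in pairs on an Illumina NovaSeq, per the labels' protocols. The deposited values are expected counts, the authors' estimates of fragments per gene, and carry no scaling for depth or length, per the file headers. Alignment and counting tools listed in the submitters' processing notes are STAR 2.7.0e and RSEM 1.3.1, with builds WBcel235 and ce11. Neither the counting annotation nor its strand setting is stated in the sources used. Without strand, overlapping genes cannot be told apart with certainty. Counts were rounded to whole numbers (93.4% to 93.8% of values above 0 were exactly whole, tolerance 0). Names and 1-based coordinates come from the Ensembl WBcel235 annotation, which matched 46924 of 46934 entries.

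Genes were fitted with edgeR 4.0.16 in R 4.3.3 (filterByExpr by genotype, TMM scaling, robust quasi-likelihood F test, 1 term per genotype, 12 libraries), and SE is the estimate divided by the root of F. Alternatives used DESeq2 1.42.0, limma 3.58.1, other scalings and filters, a replicate block, a stage covariate and the omission of libraries. Log2 CPM used a prior count of 2. Plots used matplotlib 3.10.9.

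The members, gene lists and tests were chosen with earlier results of these data known. Named genes were, among called genes at 2 CPM or more in the highest genotype, up to 12 with a gene-class name and up to 3 with a clone name in each direction, by p, which covered all 10. Others named are said to be chosen after their values were seen, except dis-3, eat-2, the lipl and fat families and genes named for lying beside a called gene. Depth was 31812386 to 32773817 counts per library.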

Additional observations from a re-analysis of the deposited data

Results flagged for a closer look

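Each genotype is a single strain, so other variants that a strain carries cannot be told apart from the alleles. The dis-3(L75Q) difference was not the same with and without eat-2(ad1116), by the interaction test itself, for 10 genes. Their log2 interactions were 3.31 for hmt-1, 3.54 for T24C12.3, 1.43 for C09D4.4, 0.98 for let-355, 2.12 for fbxa-192 and 3.49 for Y48G9A.11, all above the additive expectation. They were -2.77 for scb-1, -2.01 for tts-1, -2.54 for lipl-1 and -1.22 for T10D4.6, below it. A test for single outlying libraries was not made, because groups of 3 are too small for it.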

How the results depend on the processing

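The count of 10 genes (6 above and 4 below the additive expectation) was 52 with DESeq2 (13 and 39), 6 with limma-voom (1 below), 4 at an adjusted p under 0.01 (3 and 1), and 3 above with a mean of at least 5 CPM. With single libraries left out it ran from 3 to 2214 (2 to 1501 above, 1 to 713 below), and without the 3 libraries apart on the stage score it was 8677 (4087 and 4590). With the replicate block it was 4 (3 and 1). The labels do not say whether replicate numbers mark shared harvests. Of 18 same-numbered pairs, 7 had deviations correlated above 0.1 (range -0.626 to 0.424), and 4 of 12 libraries correlated best with their own number. The 3 libraries apart on the stage score bear different replicate numbers, so these correlations cannot decide whether harvests were shared. DESeq2 also called 338, 2284, 174 and 608 genes, where edgeR called 91, 1009, 57 and 202, for dis-3(L75Q) and eat-2(ad1116) against wild type and the double mutant against eat-2(ad1116) and dis-3(L75Q). The cause of these changes was not tested. For the 10 genes 163 values under the alternatives kept the call, 85 missed the threshold and 0 changed direction. With limma-voom the calls of tts-1, let-355, lipl-1 and T10D4.6 were lost, with the replicate block those of tts-1, fbxa-192, Y48G9A.11, let-355, lipl-1 and T10D4.6, and with limma-trend that of Y48G9A.11 (adjusted p = 0.0516). The call of let-355 was lost with other scalings or filters (adjusted p = 0.0668 to 0.139). Other scalings moved the median of all genes from -0.024 to -0.066 or 0.005. All 10 genes had a genotype apart also with a gap of at least 1.5-fold. With that gap, however, wild type was apart as high in 0 instead of 2 and as low in 1 instead of 2. The interaction of the stage score was -2.56 with z-scored genes.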
